A study of Homo sapiens with 6 samples.

Results

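Steroid reductases and hydroxysteroid dehydrogenases, 10 genes in all, were followed in C4-2 cells, a human castration-resistant prostate cancer line. They encode the aldo-keto reductases AKR1C1, AKR1C2 and AKR1C3, the reductases SRD5A1 and SRD5A3, the hydroxysteroid dehydrogenases HSD17B4, HSD17B6, HSD17B11 and HSD17B14, and the steroid sulfatase STS. The 10 symbols were given as a list and matched to Ensembl identifiers, 1 each, among 62696 gene rows. All came from bulk RNA sequencing of 3 libraries of C4-2 cells in which CDK12 had been knocked out by CRISPR-Cas9 (the CDK12KO libraries, genotype CDK12 knockout) and 3 libraries of C4-2 cells with the vector (the VEC libraries, genotype WT). Both lines grew untreated in RPMI1640 with fetal bovine serum. No label tells if replicates came from separate cultures or from 1 or more edited clones. The p-values therefore measure the spread between these libraries only, which may be technical, and the knockout cannot be told apart from any other difference between the 2 lines.

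Prostate cells meet steroids that arrive from the blood and convert them on the spot. Sulfatase frees stored precursors, 17-ketosteroid reductases and 5α-reductases lead towards testosterone and dihydrotestosterone, and oxidative dehydrogenases and 3-ketosteroid reductases take active hormones apart or, in a back reaction, restore them. In castration-resistant prostate cancer such local conversion is known as a source of active androgens.

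The libraries held 26357250 to 30732841 reads in the CDK12KO group and 24660798 to 25879375 in the VEC group. CDK12 RNA was at 58.1 ± 2.35 CPM in CDK12KO and 55.1 ± 6.35 CPM in VEC libraries (SD, n = 3 each; edgeR adjusted p = 0.709), which is no check of the knockout, since a transcript with a broken reading frame can still be counted. CPM is each gene's count divided by its library's TMM-scaled total of reads in genes, scaled to counts per 1 M reads. CDK12KO library 2 stood apart from the rest: its log2 CPM correlated with the other 5 libraries across genes at r = 0.916 to 0.9499, while those correlated among themselves at 0.977 to 0.990. It was the highest or lowest of the 6 libraries for 76.9% of all tested genes, so results are given with and without it. All 11 prostate luminal markers were at 1 CPM or more on average. Fibroblast markers summed to 25.5 to 32.4 CPM in CDK12KO and 22.7 to 24.6 CPM in VEC libraries, mostly COL1A1. Endothelial markers summed to 6.66 to 10.3 and 4.72 to 5.32 CPM in the same order, mostly VWF. Basal markers summed to 2.5 to 5.41 and 1.54 to 2.47 CPM, and neuroendocrine markers to 3.1 to 6.67 and 2.25 to 11.7 CPM. Leukocyte markers summed to 0.0629 to 0.259 CPM in CDK12KO and 0.168 to 2.46 CPM in VEC libraries, with CD3E at 0 counts in every library. In bulk RNA, fewer cells with a transcript and less of it in each cell cannot be told apart.

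HSD17B14, AKR1C2 and HSD17B11 were higher and STS and HSD17B4 were lower in CDK12KO cells once library 2 was left out, and with all 6 libraries no gene of the 10 passed the test. AKR1C3 was too low to be tested, which left 9 genes. In the 6-library fit (edgeR quasi-likelihood test, Benjamini-Hochberg adjusted p under 0.05) 0 of 9 were called, against 0.596% of all 15783 tested genes. At an unadjusted p under 0.05 there were 6 of 9, against 21.7% of all genes. DESeq2 called 5 of 9 in these 6 libraries (AKR1C1, AKR1C2, HSD17B11, HSD17B14 and STS), against 6.21% of all genes, and limma-voom called 0, against 0.665%. Without CDK12KO library 2, edgeR called 5 of 9 (3 higher and 2 lower in CDK12KO cells), against 19.1% of 16339 tested genes, 10.2% higher and 8.88% lower. DESeq2 and limma-voom also called 5 of 9 there, against 15.9% and 18.7% of all genes, and 7 of 9 had an unadjusted p under 0.05, against 31.7%. The CPM ranges of the 3 CDK12KO and 3 VEC libraries did not overlap for 8 of the 9, with 5 higher and 3 lower, against 39.4% of all tested genes, 20.4% higher and 19.0% lower. Without library 2 it was again 8 of 9, against 47.2%. The genes were chosen with results of these data known, so these shares describe them and test nothing. Their median log2 fold change was 0.24 with all libraries and 0.18 without library 2, beside 0.00 and -0.01 over all tested genes.

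**Figure D1:**
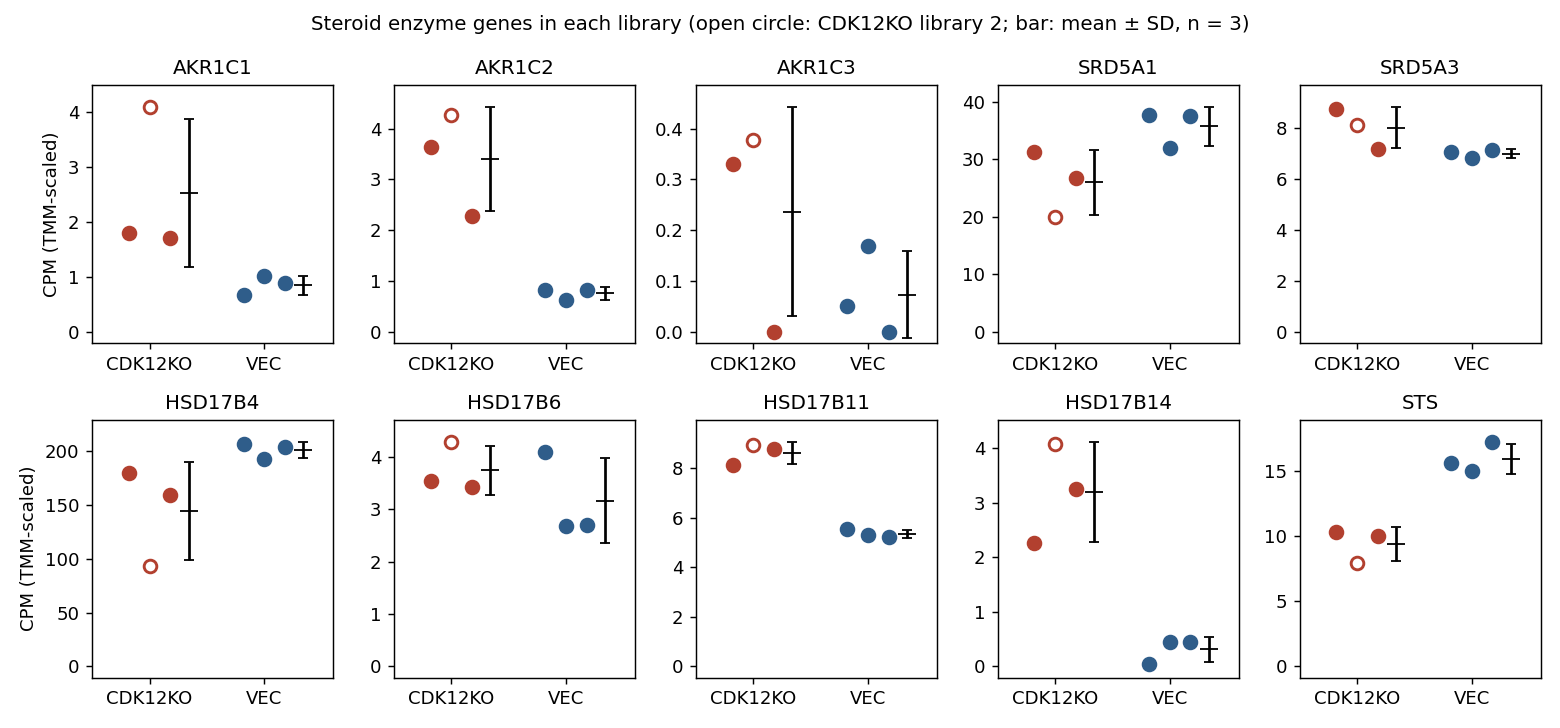
CPM (vertical axis, linear) of each of the 10 genes in the 3 CDK12KO libraries (red, left) and the 3 VEC libraries (blue, right), with CDK12KO library 2 as an open circle and the mean ± SD (n = 3) as a black bar. HSD17B14 had 2.27 to 4.09 CPM in CDK12KO and 0.0512 to 0.448 CPM in VEC libraries, and STS is the clearest case of lower CDK12KO points.

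The AKR1C genes lie side by side on chromosome 10 and encode reductases with overlapping substrates. AKR1C1 mainly reduces progesterone at its 20-keto group, AKR1C2 turns dihydrotestosterone into the weak 3α-androstanediol, and AKR1C3 makes testosterone from androstenedione. On GRCh38 (GENCODE 29) AKR1C1 (ENSG00000187134.14) spans chr10:4963253-4983283 on the plus strand, AKR1C2 (ENSG00000151632.18) chr10:4987400-5018031 on the minus strand and AKR1C3 (ENSG00000196139.14) chr10:5035354-5107686 on the plus strand. Their sequences decide how far reads can be assigned, so the coding stretch in which AKR1C1 and AKR1C2 differ most is shown first. It covers coding bases 103 to 162 counted from the start codon, read 5′ to 3′ from the GENCODE 29 principal transcripts. Capitals mark the 15 positions at which the 3 genes are not all the same, and AKR1C1 and AKR1C2 differ at 10 of the 60.
AKR1C1: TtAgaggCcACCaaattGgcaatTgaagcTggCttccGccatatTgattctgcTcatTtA
AKR1C2: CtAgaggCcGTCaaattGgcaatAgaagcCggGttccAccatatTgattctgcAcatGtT
AKR1C3: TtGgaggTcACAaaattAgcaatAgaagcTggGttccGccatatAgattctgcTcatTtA
Over the whole coding sequence AKR1C1 and AKR1C2 were almost the same: 950 of 969 bases were identical (98.0%), with an unbroken identical run of 186 bases. AKR1C3 shared 91.4% of coding bases with AKR1C1 and 91.0% with AKR1C2. Of all 100-base windows along the principal transcript, 17.4% of those of AKR1C1, 32.9% of those of AKR1C2 and 4.98% of those of AKR1C3 occurred exactly in a transcript of another gene, nearly all within this family. Reads that map to several places are outside the gene counts, so these genes may be counted low and the split between AKR1C1 and AKR1C2 is uncertain. How many such reads came from these genes was not measured.

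**Figure D2:**
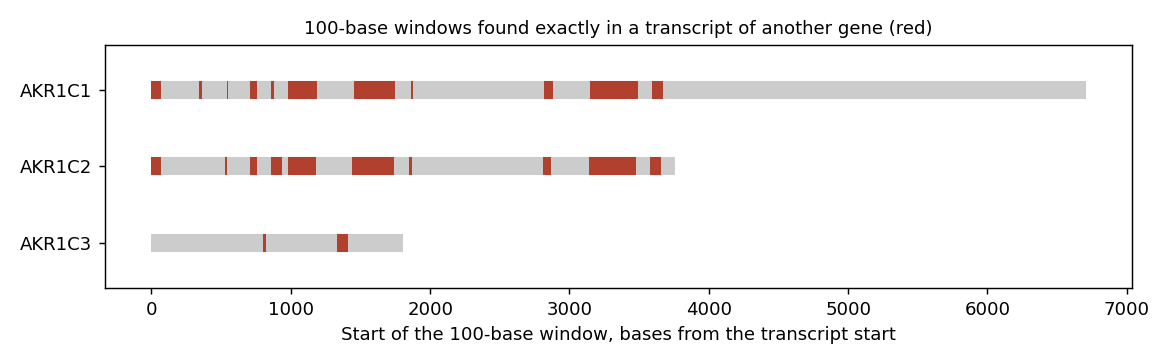
Principal transcripts of AKR1C1, AKR1C2 and AKR1C3 drawn to scale (horizontal axis, bases from the transcript start), with the starts of 100-base windows that occur exactly in a transcript of another gene in red, sampled every 10 bases. AKR1C2 carries the most red, 32.9% of its windows, and AKR1C3 the least, 4.98%.

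The identity of AKR1C1 and AKR1C2 reaches beyond the transcripts. The 84 bases just before the first exon of the GENCODE 29 principal transcript were the same letter for letter in both genes, chr10:4963169-4963252 on the plus strand for AKR1C1 and chr10:5004024-5004107 on the minus strand for AKR1C2 (RefSeq promoter table, GRCh38.p14). For AKR1C2 this stretch lies within the annotated gene, since other transcripts start further upstream. The bases are shown because both genes had higher levels in all 3 CDK12KO libraries. Any part of these bases in those levels was not tested, and how reads split between the 2 genes is uncertain.
AKR1C1 and AKR1C2: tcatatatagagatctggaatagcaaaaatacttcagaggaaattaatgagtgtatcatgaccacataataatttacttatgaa
Over the whole 250 bases before their RefSeq starts the 2 genes were 96.5% identical when aligned. These windows (chr10:4963165-4963414 for AKR1C1, chr10:5003858-5004107 for AKR1C2) run on past the start of that first exon. The 96.5% therefore also counts bases within the transcripts. AKR1C1 shared 70.7% and 69.2% with the windows at the AKR1C3 starts.

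AKR1C2 had 77, 68 and 44 counts in CDK12KO libraries 1 to 3, against 16, 11 and 15 in VEC libraries 1 to 3. That is 3.64, 4.28 and 2.28 CPM in CDK12KO, against 0.819, 0.616 and 0.824 CPM in VEC libraries. Every CDK12KO library lay above every VEC library by more than 2-fold. The log2 fold change was 2.16 ± 0.34 (SE) with all libraries, just short of a call (edgeR adjusted p = 0.0512). Without CDK12KO library 2 AKR1C2 rose by 1.96 ± 0.35 (edgeR adjusted p = 0.000645). This call ended when CDK12KO library 1 was left out as well (edgeR adjusted p = 0.0511), a fit in which the lone CDK12KO library is assumed to vary like the others.

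AKR1C1 had 38, 65 and 33 counts in CDK12KO libraries 1 to 3, against 13, 18 and 16 in VEC libraries. On the CPM scale these were 1.79, 4.09 and 1.71 in CDK12KO, against 0.665, 1.01 and 0.879 in VEC libraries. The groups did not overlap, and CDK12KO library 2 was more than double the other CDK12KO libraries. Fitted log2 fold changes were 1.56 ± 0.44 with all libraries (edgeR adjusted p = 0.172) and 1.04 ± 0.39 without library 2 (edgeR adjusted p = 0.0697), so edgeR did not call AKR1C1 in either, while DESeq2 called it with all libraries (adjusted p = 0.0349). Leaving out VEC library 2 as well gave a call (edgeR adjusted p = 0.0452).

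AKR1C3, the enzyme of this family most often linked to androgen synthesis in resistant tumours, was near the detection limit. It had 7, 6 and 0 counts in CDK12KO libraries 1 to 3 and 1, 3 and 0 in VEC libraries. A count of 0 allows up to 0.155 CPM in CDK12KO library 3 and 0.165 CPM in VEC library 3, taking 3 counts as the limit and covering counting error only. No change of AKR1C3 was detectable at this depth. AKR1C4, the liver member of the family, had 0 counts in all libraries.

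Since reads are hard to split within the family, the 3 genes were also summed. The sum was 122, 139 and 77 counts in CDK12KO libraries 1 to 3, against 30, 32 and 31 in VEC libraries, or 6.16 ± 2.41 CPM in CDK12KO and 1.68 ± 0.130 CPM in VEC libraries (SD, n = 3 each). The VEC libraries were close together and the CDK12KO libraries spread over more than 2-fold. The log2 fold change of the sum was 1.87 ± 0.33 with all libraries (edgeR adjusted p = 0.0706) and 1.53 ± 0.26 without library 2, where it passed (edgeR adjusted p = 0.00038).

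SRD5A1 and SRD5A3 belong to 1 protein family but act on different lipids. SRD5A1 is the 5α-reductase that predominates in resistant prostate cancer and makes dihydrotestosterone or its precursor androstanedione. SRD5A3 is known above all as the polyprenol reductase that supplies dolichol for protein glycosylation. SRD5A1 (ENSG00000145545.12, chr5:6633343-6674386, plus strand) had 31.2, 19.9 and 26.7 CPM in CDK12KO libraries 1 to 3, against 37.7, 31.9 and 37.5 CPM in VEC libraries. The groups were separated by less than 1 CPM, between CDK12KO library 1 and VEC library 2. SRD5A1 differed on the log2 scale by -0.46 ± 0.19 with all libraries (edgeR adjusted p = 0.223) and -0.31 ± 0.11 without library 2, just short of a call (edgeR adjusted p = 0.0530). It became a call when VEC library 2 was left out too (edgeR adjusted p = 0.00341).

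SRD5A3 (ENSG00000128039.13, chr4:55346109-55373096, plus strand) had 8.78, 8.12 and 7.19 CPM in CDK12KO libraries, against 7.06, 6.83 and 7.14 CPM in VEC libraries. Its VEC libraries were the most even of the 10 genes, with a coefficient of variation of 2.31%. The lowest CDK12KO and highest VEC library were almost level. On the log2 scale the difference was 0.20 ± 0.16 with all libraries and 0.18 ± 0.17 without library 2 (edgeR adjusted p = 0.450 and 0.496). An antisense gene, SRD5A3-AS1, overlaps 4.48% of its exonic bases. Reads there that fall in both genes are outside the counts. The same limit holds for HSD17B6 (5.81% of exonic bases, PRIM1), HSD17B11 (4.8%, AC108516.2) and HSD17B4 (1.71%, FAM170A). HSD17B11 also shared 3.81% of its 50-base windows with AC108516.2. SRD5A2, the 5α-reductase of the normal prostate, had counts in CDK12KO library 2 only, at 0.126 CPM.

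The 4 dehydrogenases of the HSD17B group differ in fold, place in the cell and direction of reaction. HSD17B14, a cytosolic enzyme that oxidises estradiol and androstenediol at carbon 17 in vitro, had the largest fitted fold change of the 9 genes. HSD17B14 (ENSG00000087076.9, chr19:48813017-48836678, minus strand) had 48, 65 and 63 counts in CDK12KO libraries 1 to 3, against 1, 8 and 8 in VEC libraries. On the CPM scale this was 2.27, 4.09 and 3.26 in CDK12KO, against 0.0512, 0.448 and 0.440 in VEC libraries. The lowest CDK12KO library was about 5-fold above the highest VEC library. With all libraries its log2 fold change was 3.34 ± 0.59 (edgeR adjusted p = 0.0705). Without library 2 HSD17B14 rose by 3.13 ± 0.50 (edgeR adjusted p = 0.000194), and that call held whichever further library was left out (edgeR adjusted p up to 0.00888). None of its 50-base windows occurred in another gene's transcripts and no annotated exon overlaps it.

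HSD17B11 (ENSG00000198189.11, chr4:87336610-87391386, minus strand), a lipid droplet enzyme that oxidises androstanediol to androsterone, had 8.12, 8.93 and 8.79 CPM in CDK12KO libraries 1 to 3, against 5.53, 5.32 and 5.22 CPM in VEC libraries. Both groups were tight, and CDK12KO library 2 lay close to the other CDK12KO libraries. The log2 fold change was 0.68 ± 0.16 with all libraries (edgeR adjusted p = 0.123). Without library 2 HSD17B11 rose by 0.65 ± 0.17 (edgeR adjusted p = 0.0116), and the call ended when CDK12KO library 1 or 3 was left out too (edgeR adjusted p = 0.0668 and 0.138).

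HSD17B4 (ENSG00000133835.18, chr5:119452443-119637199, plus strand) encodes the peroxisomal multifunctional enzyme that breaks down very long and branched fatty acids and can oxidise estradiol. It had 180, 93.0 and 159 CPM in CDK12KO libraries 1 to 3, against 207, 193 and 204 CPM in VEC libraries. All CDK12KO libraries were lower, library 2 by far the most, at 46.2% of the VEC mean. On the log2 scale the difference was -0.48 ± 0.24 with all libraries (edgeR adjusted p = 0.266). Without library 2 HSD17B4 fell by 0.25 on the log2 scale (SE 0.07, edgeR adjusted p = 0.0156). The call ended when CDK12KO library 3 or VEC library 1 was left out too (edgeR adjusted p = 0.369 and 0.0832).

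HSD17B6 (ENSG00000025423.11, chr12:56752161-56787790, plus strand), an oxidative 3α-dehydrogenase that can turn androstanediol back into dihydrotestosterone, had 3.54, 4.28 and 3.41 CPM in CDK12KO libraries and 4.09, 2.69 and 2.69 CPM in VEC libraries. The groups overlapped, with VEC library 1 within the range of the CDK12KO libraries. The log2 fold change was 0.24 ± 0.26 with all libraries and 0.13 ± 0.26 without library 2 (edgeR adjusted p = 0.550 and 0.777).

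STS (ENSG00000101846.9, chrX:7219456-7354810, plus strand) encodes the sulfatase that frees dehydroepiandrosterone and estrone from their sulfates. It had 10.3, 7.93 and 9.98 CPM in CDK12KO libraries 1 to 3, against 15.6, 14.95 and 17.2 CPM in VEC libraries. Each CDK12KO library was at least 4 CPM below each VEC library. The log2 fold change was -0.76 ± 0.16 with all libraries (edgeR adjusted p = 0.113). Without library 2 STS fell by 0.65 on the log2 scale (SE 0.13, edgeR adjusted p = 0.00207), and the call held whichever further library was left out (edgeR adjusted p up to 0.0449). Its pseudogene STSP1 shared 0.0927% of the 50-base windows of its transcript.

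**Figure D3:**
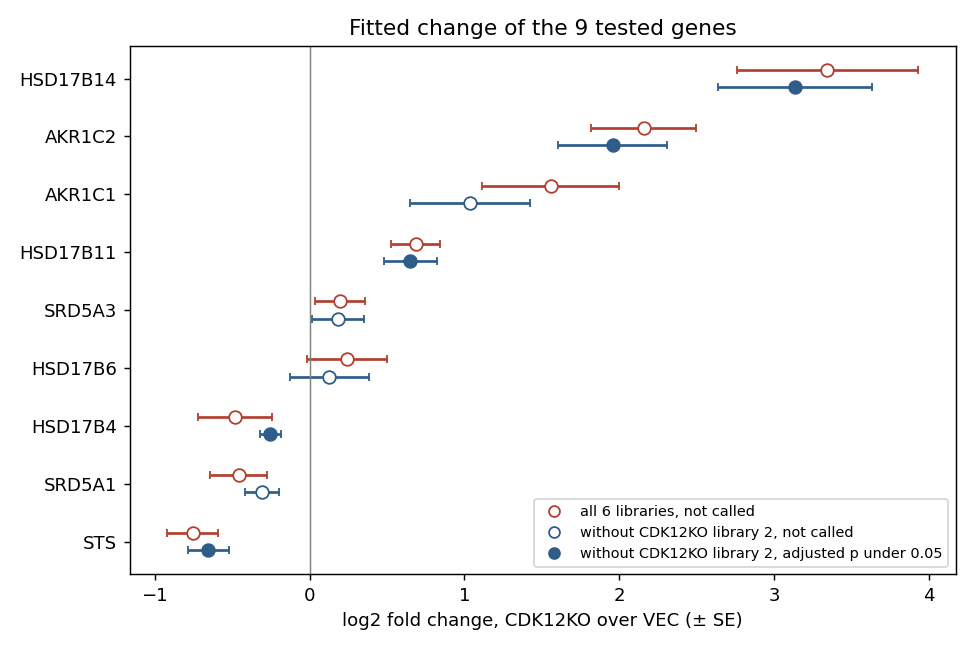
Log2 fold change of CDK12KO over VEC (horizontal axis, bars ± SE) for the 9 tested genes, with all 6 libraries (red, upper) and without CDK12KO library 2 (blue, lower), filled where the edgeR adjusted p was under 0.05. Signs are the same in both fits, 5 blue points are filled, and no red point is.

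CDK12KO library 2 was the highest or lowest of the 6 libraries for 8 of the 9 tested genes (88.9%), SRD5A3 being the exception, beside 76.9% of all tested genes. For AKR1C1, AKR1C2, HSD17B6, HSD17B11 and HSD17B14 it lay highest, and for SRD5A1, HSD17B4 and STS lowest. For all 5 genes called without it, it also lay beyond every VEC library on the called side. The share of all genes called without it that did the same was not counted, so this describes the 5 genes only. On the log2 scale the fold changes of AKR1C1 and HSD17B4 moved most with it, HSD17B4 only slightly more than HSD17B14 and AKR1C2. The mean CPM ratio of CDK12KO over VEC was 2.97 with it and 2.06 without it for AKR1C1, and 0.716 and 0.843 for HSD17B4. It was 10.2 and 8.83 for HSD17B14 and 4.5 and 3.9 for AKR1C2. For HSD17B11 the ratio was 1.61 and 1.58.

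Per kilobase of principal transcript, HSD17B4 was by far the most abundant of the 10, at 53.7 ± 16.9 CPM per kilobase in CDK12KO and 74.9 ± 2.69 in VEC libraries (SD, n = 3 each). In VEC libraries SRD5A1 followed at 5.00 ± 0.465, HSD17B11 at 2.84 ± 0.0832, STS at 2.44 ± 0.177, HSD17B6 at 1.80 ± 0.463 and SRD5A3 at 1.67 ± 0.0387 CPM per kilobase. STS and HSD17B6 overlapped there, as did HSD17B6 and SRD5A3. HSD17B14 came seventh in VEC libraries at 0.253 ± 0.183, overlapping AKR1C2 at 0.200 ± 0.0316, then AKR1C1 at 0.127 ± 0.0258 and AKR1C3 at 0.0404 ± 0.0476 CPM per kilobase. In CDK12KO libraries the order below HSD17B4 was different: HSD17B11 at 4.57 ± 0.231 and SRD5A1 at 3.64 ± 0.794 were next and overlapped, HSD17B14 took the fourth place at 2.59 ± 0.737 and overlapped SRD5A1 above it and HSD17B6 below it, and STS was seventh at 1.44 ± 0.199 CPM per kilobase. AKR1C2 and AKR1C1 stayed eighth and ninth at 0.904 ± 0.272 and 0.377 ± 0.202, and overlapped. Reads shared within the AKR1C family are outside the counts, so the places of its genes may be too low in both groups. The order depended on the length used. With coding length in place of transcript length HSD17B14 ranked 6 in CDK12KO and 9 in VEC libraries. SRD5A1 then ranked 2 in both groups, ahead of HSD17B11 at 3 in CDK12KO and 5 in VEC libraries. STS ranked 5 and 3, SRD5A3 4 in both, HSD17B6 7 and 6, and AKR1C1 9 and 7. HSD17B4, AKR1C2 and AKR1C3 kept their ranks.

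**Figure D4:**
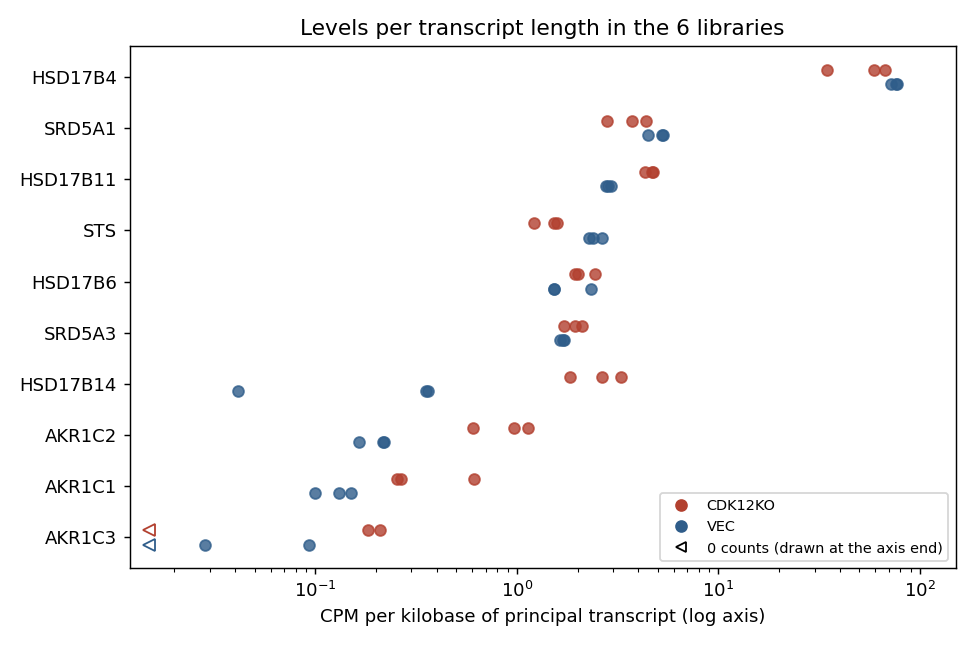
CPM per kilobase of principal transcript (log axis) for each library, CDK12KO in red above VEC in blue, genes ordered by their VEC mean and libraries with 0 counts drawn as open triangles at the axis end. HSD17B4 lies more than 10-fold above the next gene in VEC libraries, and HSD17B14 shows the widest gap between red and blue.

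The genes whose log2 CPM over the 6 libraries was most like that of AKR1C2, out of 9762 protein-coding genes whose mean reached 5 CPM, were B3GNTL1 (Pearson r = 0.9955), COL5A1 (0.995) and SLC51A (0.990). For STS they were CD2AP (0.9985), FICD (0.998) and NACC2 (0.998). All 6 libraries form only 2 groups and share their depth and the position of CDK12KO library 2, and 127 genes had r above 0.95 with AKR1C2 and 381 with STS, so these names describe the pattern and no more.

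Other dehydrogenases and reductases made up a list of 30 genes. With all libraries 19 were tested, and HSD11B2 alone rose, with 0 lower, against 0.596% of all genes called. HSD11B2, which inactivates cortisol, had 83.6, 121 and 87.5 CPM in CDK12KO libraries 1 to 3, against 46.6, 43.8 and 41.2 CPM in VEC libraries, so its log2 fold change came to 1.15 ± 0.17 (edgeR adjusted p = 0.0431). That call ended without CDK12KO library 1 (edgeR adjusted p = 0.0790) or 3 (0.115), or VEC library 1 (0.235), 2 (0.254) or 3 (0.277), with library totals as the only scaling (0.0656) and with the replicate number as a block (0.107). Without CDK12KO library 2, 5 of 20 tested genes rose and 1 fell, against 10.2% higher and 8.88% lower of all genes, with HSD11B2 at 0.96 ± 0.08 (edgeR adjusted p = 1.49e-07). The list median was 0.24 with all libraries and 0.01 without library 2.

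Among the other calls in that fit, TECR, a very-long-chain enoyl reductase related to the 5α-reductases, rose by 0.60 ± 0.08 (edgeR adjusted p = 3.99e-05). It had 179, 419 and 175 CPM in CDK12KO libraries, against 111, 133 and 105 CPM in VEC libraries. HSD11B1L rose by 0.90 ± 0.17 (edgeR adjusted p = 0.000745). HSD17B1, which makes estradiol from estrone, rose by 0.72 ± 0.21 (edgeR adjusted p = 0.0228). Its values were 5.33, 25.8 and 6.83 CPM in CDK12KO libraries, against 3.28, 4.25 and 3.46 CPM in VEC libraries, so library 2 was set apart here too, and with it the log2 fold change was 1.78 ± 0.60 (edgeR adjusted p = 0.205). The HSD17B1 call ended without CDK12KO library 3 (edgeR adjusted p = 0.290), VEC library 1 (0.0771) or VEC library 3 (0.0694). RDH11, a retinal reductase first known from prostate, fell by 0.64 on the log2 scale (SE 0.07, edgeR adjusted p = 1.57e-06). It had 173, 136 and 176 CPM in CDK12KO libraries, against 284, 264 and 268 CPM in VEC libraries.

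Of 17 genes of steroid synthesis from cholesterol, 9 were tested, 8 had a mean of at least 1 CPM and 4 had 0 counts in every library. In the 6-library fit edgeR called 0, DESeq2 0 and limma-voom 0, against 0.596%, 6.21% and 0.665% of all genes. At an unadjusted edgeR p under 0.05 there were 5, a share to be read against 21.7% of all genes. The 4 genes at 0 counts were CYP21A2, CYP11B1, CYP11B2 and CYP19A1, and CYP17A1, which makes the androgen precursor dehydroepiandrosterone, had a count in VEC library 1 only. Without library 2, 4 of 9 rose and 0 fell, against 10.2% higher and 8.88% lower of all genes. These 4 were the adrenodoxin reductase gene FDXR (log2 0.42 ± 0.08, edgeR adjusted p = 0.00121), the mitochondrial cholesterol-binding protein gene TSPO (0.29 ± 0.06, 0.00318), the cytochrome b5 gene CYB5A (0.28 ± 0.06, 0.00357) and the side-chain cleavage enzyme gene CYP11A1 (0.36 ± 0.12, 0.0482). Without CDK12KO library 1 the edgeR adjusted p was 0.0590, 0.0557, 0.0714 and 0.397 for these 4, and all lost their call. Without CDK12KO library 3 TSPO (0.0792), CYB5A (0.0770) and CYP11A1 (0.116) lost theirs. CYP11A1 also lost it without VEC library 1 (0.0675), 2 (0.0615) or 3 (0.0627), with library totals as the only scaling (0.0918) and with DESeq2 (0.0786). The list median was 0.39 with all libraries and 0.28 without library 2.

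Conjugation genes held the strongest changes. Of 23 listed genes 14 were tested, and 5 rose with all libraries, against 0.596% of all genes called, all of them UGT2B genes, a family of glucuronidating enzymes, by 4.42 (UGT2B15) to 6.08 (UGT2B11) on the log2 scale. Members of the UGT2B family are close in sequence, and how reads divide among them is uncertain. The UGT2B10 call ended without CDK12KO library 1 (edgeR adjusted p = 0.0873) or 3 (0.100), or VEC library 1 (0.18), 2 (0.161) or 3 (0.212), with library totals (0.0656) and with the replicate block (0.107), and the UGT2B15 call without VEC library 1 (0.0887) or 2 (0.107). UGT2B17, which inactivates testosterone and dihydrotestosterone and accepts androsterone and androstanediol, was at 28.0 ± 2.82 CPM in CDK12KO and 0.626 ± 0.154 CPM in VEC libraries (SD, n = 3 each). Without library 2, 6 rose, the same 5 and SULT2B1, and ABCC4, ABCC1 and SUMF2 fell, against 10.2% higher and 8.88% lower of all genes. SULT2B1, a sulfotransferase of cholesterol and 3β-hydroxysteroids and so a counterpart of STS, rose by 1.24 ± 0.19 in that fit (edgeR adjusted p = 0.000107). It had 9.96, 21.5 and 9.10 CPM in CDK12KO libraries, against 4.20, 4.48 and 3.35 CPM in VEC libraries, without overlap. The efflux transporter gene ABCC4 fell by 0.78 on the log2 scale (SE 0.08, edgeR adjusted p = 2.29e-06). ABCC1, at -0.32, lost its call without CDK12KO library 1 (edgeR adjusted p = 0.0671) or 3 (0.232) or VEC library 1 (0.0808) or 3 (0.0936), and SUMF2, at -0.24, without CDK12KO library 1 (0.200) or 3 (0.171). SUMF1, which activates sulfatases including STS, differed by 0.19 ± 0.11 on the log2 scale in that fit, short of a call (edgeR adjusted p = 0.237). For the whole list the median was 0.01 with all libraries and 0.09 without library 2.

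The neighbours of HSD17B4 in peroxisomal β-oxidation and of SRD5A3 in the dolichol pathway were also counted. Of 14 tested β-oxidation genes edgeR, DESeq2 and limma-voom each called 0 with all libraries, against 0.596%, 6.21% and 0.665% of all genes. At an unadjusted edgeR p under 0.05 there was 1, against 21.7% of all genes, and the median was -0.01. Without library 2 edgeR called 3 of 14, against 19.1% of all genes: ECH1 rose (log2 0.24 ± 0.06) and 2 fell: PEX5, the import receptor of peroxisomal matrix proteins, by 0.46 (SE 0.10, edgeR adjusted p = 0.00344) and ACOX2, a branched-chain acyl-CoA oxidase, by 0.45 (SE 0.14, edgeR adjusted p = 0.0284). Leaving out CDK12KO library 3 ended all 3 calls (edgeR adjusted p = 0.134 for ECH1, 0.139 for PEX5 and 0.122 for ACOX2). ECH1 also lost its call without CDK12KO library 1 (0.161), VEC library 1 (0.0556) or VEC library 3 (0.0504), and ACOX2 without CDK12KO library 1 (0.216) or VEC library 3 (0.143). Of 11 tested dolichol genes edgeR, DESeq2 and limma-voom each called 0 with all libraries, against the same shares of all genes. At an unadjusted edgeR p under 0.05 there were 3, against 21.7% of all genes, and the median was 0.06. Without library 2, 4 of 11 were called, against the same 19.1%: DPM3 and DPM2 rose and NUS1 and DOLK fell. DPM3, a subunit of dolichol-phosphate mannose synthase, rose by 0.43 ± 0.07 (edgeR adjusted p = 0.00049) and kept its call whichever further library was left out. It had 83.0, 315 and 89.7 CPM in CDK12KO libraries, against 61.8, 65.8 and 64.2 CPM in VEC libraries, and with library 2 its log2 fold change was 1.35 ± 0.51 (edgeR adjusted p = 0.215). The other 3 (log2 0.23 for DPM2, -0.28 for NUS1 and -0.25 for DOLK) each lost theirs without CDK12KO library 1 or 3, or without VEC library 1 or 3, with edgeR adjusted p from 0.0787 to 0.359. With library 2 the log2 fold change of DPM2 was 0.90 ± 0.40 (edgeR adjusted p = 0.240). DOLK also lost its call with upper quartile scaling (edgeR adjusted p = 0.0522), without a low-count filter (0.0754) and with DESeq2 (0.0549), and DPM2 with library totals (0.0507) and with DESeq2 (0.0749).

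**Figure D5:**
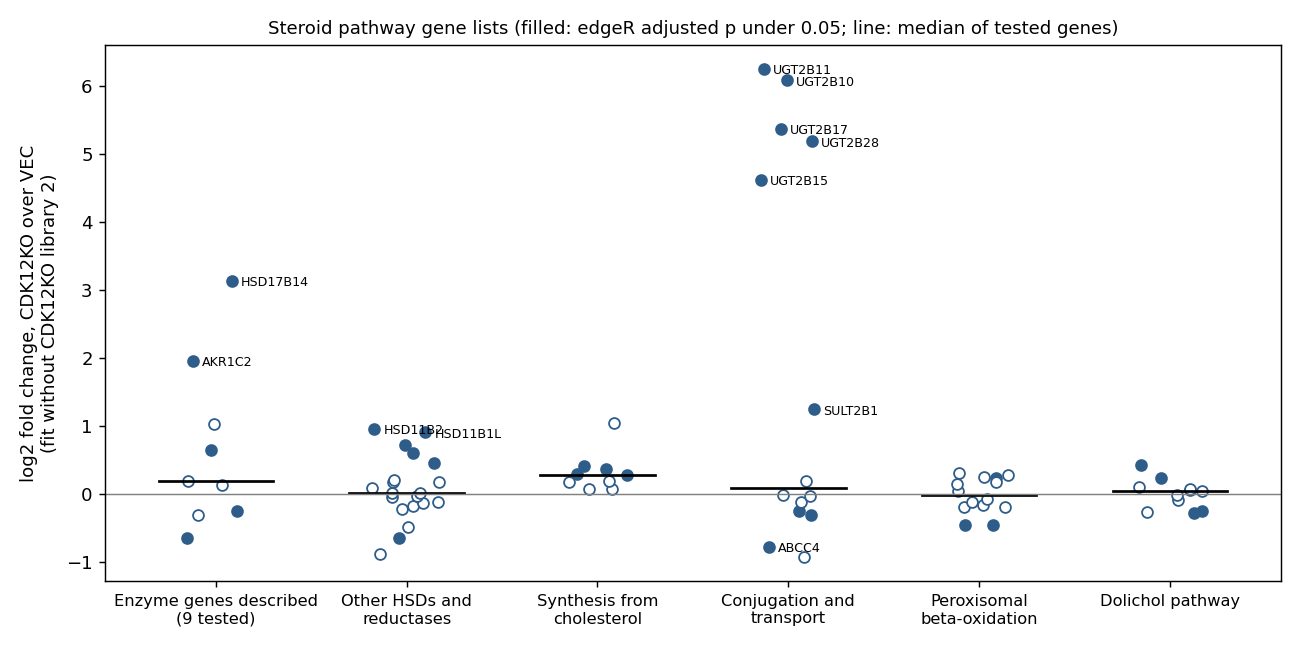
Log2 fold change of CDK12KO over VEC (vertical axis) in the fit without CDK12KO library 2, for tested genes of each list, filled where the edgeR adjusted p was under 0.05 and with the list median as a line. UGT2B genes and HSD17B14 lie highest, and the medians run from -0.01 for β-oxidation to 0.28 for synthesis from cholesterol.

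Promoter windows, the 250 bases before each RefSeq start, were available for 8 of the 10 genes, 13 windows in all, and those of HSD17B6 and HSD17B14 were not used here. They were searched on both strands. Some genes have more than 1 window, and those of STS include overlapping ones, so the windows are not separate genes. The antioxidant response element TGACNNNGC was in 2 of the 13 windows, against 10.9% of all 35116 windows. These were the SRD5A3 window and 1 STS window, chrX:7147462-7147711, upstream of the annotated STS start. The other STS windows lacked it. The AP-1 site TGANTCA was in 1 window, of SRD5A3, against 6.57%. The windows of AKR1C1, AKR1C2 and AKR1C3 held neither pattern, which says only that these letters are not in these windows. Those of AKR1C1 and AKR1C2 run into annotated exons.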

How the data were processed

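RNA libraries were made with a SMARTer mRNA kit, per the labels' protocols. FastQC, STAR and GRCh38 are named per the submitters' processing notes; the sources used here do not give versions or annotation. The deposited values are raw whole-number read counts per gene, 1 file per library, laid out as STAR writes them. The sums of the 2 stranded columns had ratios of 1.02 to 1.04, so the unstranded column was used. The 4 summary rows (multimapping reads 6.49% to 8.73%, ambiguous 11.1% to 14.4% of reads) stayed out of library sizes and tests. Symbols came from a name table (62672 of 62696 rows matched), coordinates and transcripts from GENCODE 29.

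Genes were tested with edgeR 4.0.16 under R 4.3.3 (TMM scaling after filterByExpr, robust quasi-likelihood test, no block, Benjamini-Hochberg over all tested genes, threshold 0.05), with and without CDK12KO library 2. SE is the log2 fold change divided by the square root of F. Alternatives were other scalings and filters, DESeq2 1.42.0, limma-voom 3.58.1, a replicate block and leaving out libraries. The edgeR step was tested on simulated data. Log2 CPM used a prior count of 2. The genes, lists, tests and the rule for naming genes (all 10, then in each list those called with all libraries and up to 4 by smallest adjusted p without library 2) were chosen with earlier results of these data known. SUMF1 and UGT2B17 with its levels, and genes at or near 0 counts, were named for their roles after values were seen. Same-numbered libraries deviated together at r = 0.135, 0.194 and 0.0841. Differently numbered libraries were not compared in this way, so these values cannot decide if the numbers are pairs. The numbers were not taken as pairs because no pairing is stated. Some items are not reported here.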

Additional observations from a re-analysis of the deposited data

How the results depend on the processing

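With all 6 libraries, edgeR called 94 genes: 39 with library totals only, 363 without a low-count filter, 980 with DESeq2, 5 with the replicate block, 12 at an adjusted p under 0.01 and 4 to 3123 with 1 library left out. Of the 10 enzyme genes 0 were called: 2 without a low-count filter, 1 with the 1 CPM filter, 5 with DESeq2 and 0 to 5 with 1 library left out, where 5 came without CDK12KO library 2 and 0 without any other. Without CDK12KO library 2, edgeR called 3123 genes: 5540 with the replicate block, 1656 at an adjusted p under 0.01 and 1134 to 4703 with a further library left out, and of the enzyme genes 5 were called: 3 at an adjusted p under 0.01 and 3 to 7 with a further library left out. With the replicate block added 7 were called, with AKR1C1 (edgeR adjusted p = 0.0406) and SRD5A1 (6.37e-05) as the additions, and 0 with all libraries. Without CDK12KO library 2, the block of number 2 held VEC library 2 alone, so that library added nothing to the group comparison. Leaving out VEC library 2 in place of the block also gave 7 calls. The numbers share no known source. No tested enzyme gene changed sign in the 14 alternatives to the 6-library fit (126 values over the 9 genes), which include leaving out CDK12KO library 2. Nor did any in the 13 alternatives to the fit without that library (117 values). ABCD3 reversed with all libraries, to -0.02462 with library totals only, a scaling that moved the median of all genes by -0.18. The cause of these differences was not tested. AKR1C3 and, for the AKR1C genes, reads shared within the family are limited by depth and by uniqueness of sequence.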

Other observations

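Some markers of other cell types were at 0 in every CDK12KO library. CHGA, a secretory granule protein of neuroendocrine cells, was at 0 CPM in all 3 CDK12KO libraries and at 7.32, 0.168 and 0.0549 CPM in VEC libraries 1 to 3. INSM1, a neuroendocrine transcription factor, was at 0 CPM in all CDK12KO libraries and had counts in VEC library 1 only, at 0.665 CPM. The leukocyte and secretory gene LYZ was likewise at 0 CPM in CDK12KO libraries and at 2.25, 0 and 0.110 CPM in VEC libraries. VEC library 1 was thus the source of nearly all reads of these 3 genes, and it was also the VEC library with the highest HSD17B6 and the lowest HSD17B14. Their part in those values was not tested. COL1A2, a chain of type I collagen, had 0 counts in all 3 CDK12KO libraries and 22, 20 and 10 counts (1.13, 1.12 and 0.549 CPM) in VEC libraries. It was called without CDK12KO library 2 (edgeR adjusted p = 0.000704), and with all libraries by DESeq2 (adjusted p = 0.000116) and limma-voom (0.0217) but not by edgeR (0.0743). Its partner chain gene COL1A1 was at 25.7 ± 4.04 CPM in CDK12KO and 20.5 ± 0.845 CPM in VEC libraries (SD, n = 3 each; edgeR adjusted p = 0.249 with all libraries). Not all markers of other cell types were lower in CDK12KO libraries. Mean CPM was 4.50 in CDK12KO and 2.86 in VEC libraries for SYP, a neuroendocrine marker. It was 2.15 and 1.07 for COL3A1 and 1.78 and 1.21 for PDGFRB, both fibroblast markers. For VWF, an endothelial marker, it was 8.23 and 4.61, called higher without CDK12KO library 2 (edgeR adjusted p = 0.0263). All genes of this paragraph were singled out after their values were seen.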
